A study of Rattus norvegicus with 9 samples.

Results

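Elastic fibres give tissues their recoil, and lysyl oxidases cross-link the elastin and collagen of the matrix around cells. The 10 genes described here belong to these families: the lysyl oxidase genes Lox, Loxl1, Loxl2, Loxl3 and Loxl4, the elastin gene Eln, the fibrillin gene Fbn1 and the fibulin genes Fbln1, Fbln2 and Fbln5. They were taken by symbol from a count table of 28935 genes. All 10 were found there and in the deposited RPKM table of 14986 genes, and all 10 were among the 14151 genes that passed the filter on low counts and were tested.

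Messenger RNA came from primary ventricular myocytes of Sprague Dawley rats aged 1 or 2 days. The cells first spent 48 h in culture medium with 3% serum and then 48 h without serum, with 8 µL of adenovirus per 1 mL. The virus carried Nfya, Nfe2l1 or, as the negative control, GFP, with 3 libraries for each, so that the cells of every group were infected. NFYA is part of the CCAAT-binding factor NF-Y, and NFE2L1 is a cap'n'collar transcription factor that induces proteasome genes. No label tells whether the libraries of a virus are separate cultures, so p-values cover the spread between libraries only, and that spread may be technical.

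Library totals ran from 5712123 to 7310774 counts, and each pair of libraries with the same virus differed by more than sampling noise, the least for Nfya-labelled replicates 1 and 2 (chi-square per degree of freedom 1.03, p = 0.00349). The targeted transcripts did not check the labels. Nfya averaged 89.0 ± 0.683 CPM in Nfya-labelled, 92.3 ± 2.20 CPM in Nfe2l1-labelled and 80.4 ± 2.19 CPM in GFP libraries (CPM is counts scaled by library size; SD, n = 3 each), so that it stood above GFP under either label. Nfe2l1 averaged 223 ± 4.79 CPM in Nfya-labelled, 239 ± 6.14 CPM in Nfe2l1-labelled and 241 ± 6.09 CPM in GFP libraries. Groups are named by label for this reason, and so is each direction given. The myocyte markers Tnnt2, Tnni3, Myh6, Myh7, Actc1, Ryr2, Pln and Actn2 were all detected, with summed levels of 3377 to 3425 CPM with the Nfya label, 3040.2 to 3357 CPM with the Nfe2l1 label and 3138 to 3492 CPM with GFP.

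As background, an elastic fibre has a core of cross-linked elastin on a scaffold of microfibrils, whose main protein is fibrillin-1. Fibulin-5 binds elastin and LOXL1 and is needed for fibre assembly in mice. Lysyl oxidases are copper enzymes that oxidise lysines of elastin and collagen, which then form cross-links. In the heart, fibroblasts and vessel cells are the main known sources of these proteins.

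All 10 genes were higher in Nfya-labelled than in GFP libraries, by 1.23- to 5.32-fold, and 8 of 10 were higher in Nfe2l1-labelled than in GFP libraries. Among all genes tested, 24.3% were called higher with the Nfya label and 28.9% with the Nfe2l1 label. Lox, Loxl1, Loxl3, Fbn1, Fbln2 and Fbln5 rose at least 1.78-fold under both labels, whereas Loxl2, Loxl4, Eln and Fbln1 rose 1.23-fold to 1.54-fold with the Nfya label. With the Nfe2l1 label, Loxl2 and Fbln1 were not called, Eln rose 1.13-fold, and the call of Loxl4 (1.14-fold) was lost in 8 of 18 alternative analyses. Loxl1 was the 1 member with a lower level in Nfya-labelled than in Nfe2l1-labelled libraries. The members were chosen with such results known, so these counts describe them and do not test the list.

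**Figure D1:**
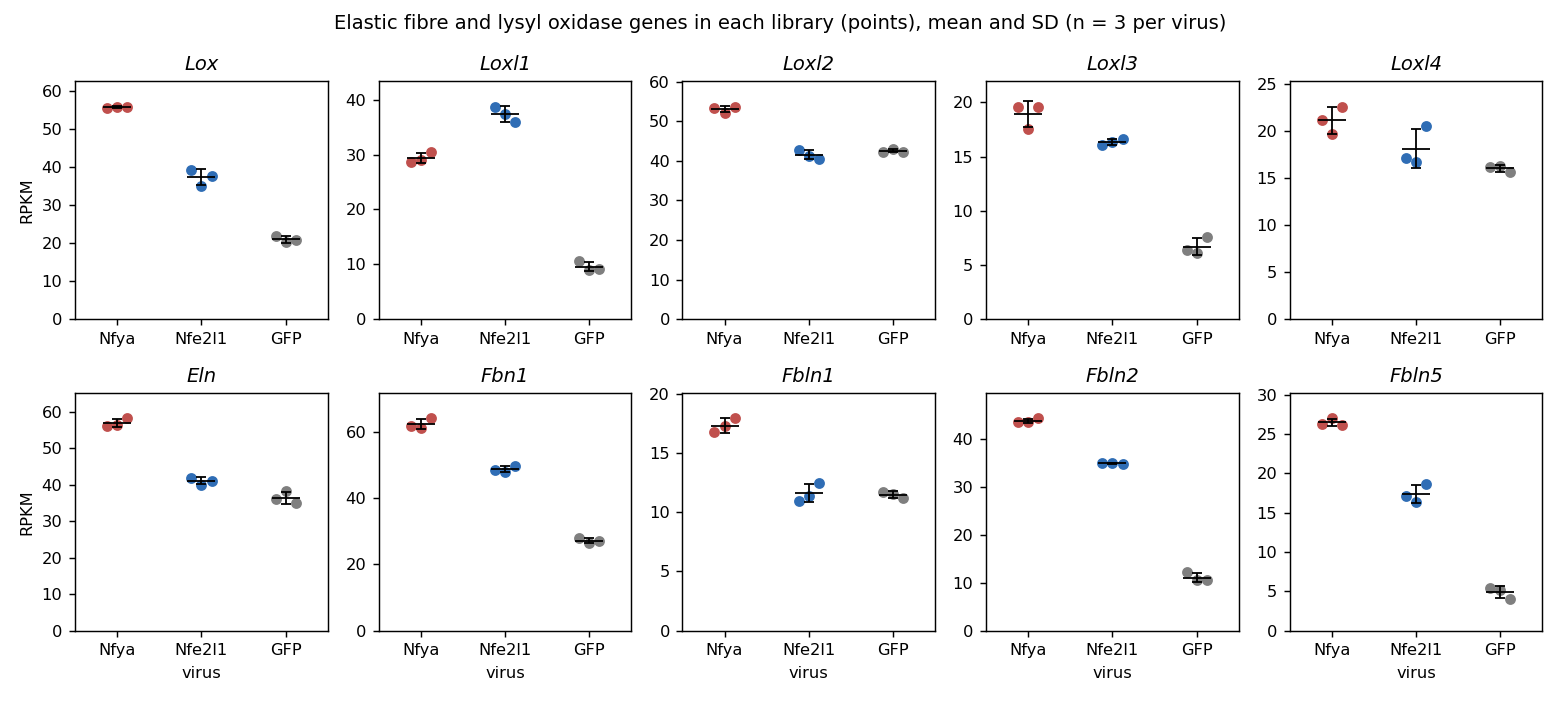
RPKM of the 10 genes in each of 9 libraries (points) by virus, with the mean and SD of 3 libraries. Fbln2 sits at 43.6 to 44.4 RPKM with the Nfya label and 10.5 to 12.2 RPKM with GFP, while the Nfe2l1-labelled and GFP libraries overlap for Loxl2 and Fbln1.

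Levels of the members are given in RPKM, the deposited reads corrected for the length of a gene and the size of a library, which can be set side by side between genes. Differences are log2 fold changes ± SE from an edgeR quasi-likelihood fit of the counts of all 9 libraries, with Benjamini-Hochberg adjusted p over the 14151 genes, and a gene was called at an adjusted p below 0.05. The SE, derived from the test statistic, was below the counting error in 21 of 30 tests of members and understates the error there. The adjusted p rests on the same statistic and may be too small in those tests. For Fbln5 in Nfya-labelled against GFP libraries the counting error was 0.10 and the SE 0.08. Members had between 56 counts (Fbln5, GFP replicate 3) and 4218 counts (Fbn1, Nfya-labelled replicate 3) in a library.

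Lox, the founding lysyl oxidase gene, had 55.6, 55.9 and 56.0 RPKM in Nfya-labelled libraries, 39.1, 35.0 and 37.8 RPKM in Nfe2l1-labelled libraries and 22.0, 20.2 and 20.9 RPKM in GFP libraries. The 3 groups did not overlap, with the Nfya-labelled libraries highest and the GFP libraries lowest. Lox rose 2.63-fold with the Nfya label (1.39 ± 0.04, adjusted p = 3.18e-13) and 1.78-fold with the Nfe2l1 label (0.83 ± 0.04, adjusted p = 1.41e-10). It was higher with the Nfya than with the Nfe2l1 label by 0.56 ± 0.04 (adjusted p = 2.53e-09).

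Loxl1, which is needed to maintain elastic fibres in mice, ran the other way between the labels. It had 28.6, 29.0 and 30.5 RPKM in Nfya-labelled libraries, 38.8, 37.4 and 35.9 RPKM in Nfe2l1-labelled libraries and 10.5, 8.97 and 9.16 RPKM in GFP libraries. No groups overlapped, and the Nfe2l1-labelled libraries were highest. The rise was 3.04-fold with the Nfya label (1.60 ± 0.06, adjusted p = 9.60e-12) and 3.91-fold with the Nfe2l1 label (1.97 ± 0.06, adjusted p = 4.12e-13). Between the labels, Loxl1 was lower with Nfya than with Nfe2l1 (-0.36 ± 0.05, adjusted p = 5.72e-06). The ratio of Loxl1 to Lox RPKM was 0.526 ± 0.0160 with the Nfya label, 1.00 ± 0.0606 with the Nfe2l1 label and 0.454 ± 0.0221 with GFP (SD, n = 3 each).

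Loxl2, Loxl3 and Loxl4 code for the lysyl oxidases with scavenger receptor domains. Loxl2 had 53.5, 52.1 and 53.7 RPKM in Nfya-labelled libraries, 42.9, 41.2 and 40.6 RPKM in Nfe2l1-labelled libraries and 42.3, 43.1 and 42.3 RPKM in GFP libraries. The Nfya-labelled libraries stood above all others, while the Nfe2l1-labelled and GFP libraries overlapped. Loxl2 rose 1.23-fold with the Nfya label (0.30 ± 0.03, adjusted p = 1.86e-06), and its difference with the Nfe2l1 label was -0.03 ± 0.04 (adjusted p = 0.544). It was higher with the Nfya than with the Nfe2l1 label by 0.34 ± 0.03 (adjusted p = 5.40e-07).

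Loxl3 had 19.6, 17.5 and 19.6 RPKM in Nfya-labelled libraries, 16.1, 16.4 and 16.6 RPKM in Nfe2l1-labelled libraries and 6.36, 6.08 and 7.60 RPKM in GFP libraries. The GFP libraries were the lowest, and no groups overlapped. Loxl3 rose 2.82-fold with the Nfya label (1.50 ± 0.07, adjusted p = 1.32e-10) and 2.47-fold with the Nfe2l1 label (1.31 ± 0.08, adjusted p = 5.93e-10). The difference between the labels (0.19 ± 0.06, adjusted p = 0.0120) was not called with DESeq2 (adjusted p = 0.130), without Nfya replicate 1 (0.0561) or without Nfya replicate 3 (0.0578). Nor was it called with limma on log2(RPKM + 0.1) (adjusted p = 0.0635) or log2(RPKM + 1) (0.0589). In the RefSeq annotation of a newer rat build Loxl3 overlaps Htra2, a mitochondrial protease gene. Htra2 stood at -0.10 ± 0.04 with the Nfya label (adjusted p = 0.0785) and -0.07 ± 0.04 with the Nfe2l1 label (adjusted p = 0.244) against GFP, not called under either. The same annotation has long noncoding genes that overlap Eln, Fbn1 and Fbln1 and a ribosomal pseudogene that overlaps Lox, and how the authors' counting treated such reads is not known.

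Loxl4 had 21.1, 19.6 and 22.6 RPKM in Nfya-labelled libraries, 17.2, 16.7 and 20.5 RPKM in Nfe2l1-labelled libraries and 16.2, 16.3 and 15.6 RPKM in GFP libraries. Nfe2l1-labelled replicate 3 reached into the range of the Nfya-labelled libraries, and GFP libraries were lowest. Loxl4 rose 1.30-fold with the Nfya label (0.38 ± 0.07, adjusted p = 2.52e-04). With the Nfe2l1 label the difference was 0.19 ± 0.07 (adjusted p = 0.0350), and the call was lost with DESeq2 (adjusted p = 0.130) and when Nfe2l1 replicate 3 (0.241) or GFP replicate 1 (0.0561), 2 (0.0530) or 3 (0.0825) was left out. This call was also lost with limma on log2(RPKM + 0.1) (adjusted p = 0.0787) and log2(RPKM + 1) (0.0804). The difference between the labels (0.19 ± 0.07, adjusted p = 0.0237) was lost with DESeq2 (adjusted p = 0.102) and without Nfya replicate 1 (0.0581) or 3 (0.132) or Nfe2l1 replicate 1 (0.0719) or 2 (0.119).

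The summed RPKM of the 5 lysyl oxidases was 178 ± 4.10 with the Nfya label, 151 ± 3.77 with the Nfe2l1 label and 95.9 ± 1.35 with GFP (SD, n = 3 each), and its makeup differed between the groups. The share of Loxl2 was 29.8% ± 0.280 with the Nfya label, 27.6% ± 0.676 with the Nfe2l1 label and 44.4% ± 1.05 with GFP. The share of Lox was 31.3% ± 0.723 with the Nfya label, 24.7% ± 0.801 with the Nfe2l1 label and 21.9% ± 0.616 with GFP, and that of Loxl1 was 16.5% ± 0.361 with the Nfya label, 24.8% ± 0.956 with the Nfe2l1 label and 9.95% ± 0.741 with GFP. Loxl2 thus led the family with GFP and with the Nfe2l1 label, and Lox led it with the Nfya label.

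**Figure D2:**
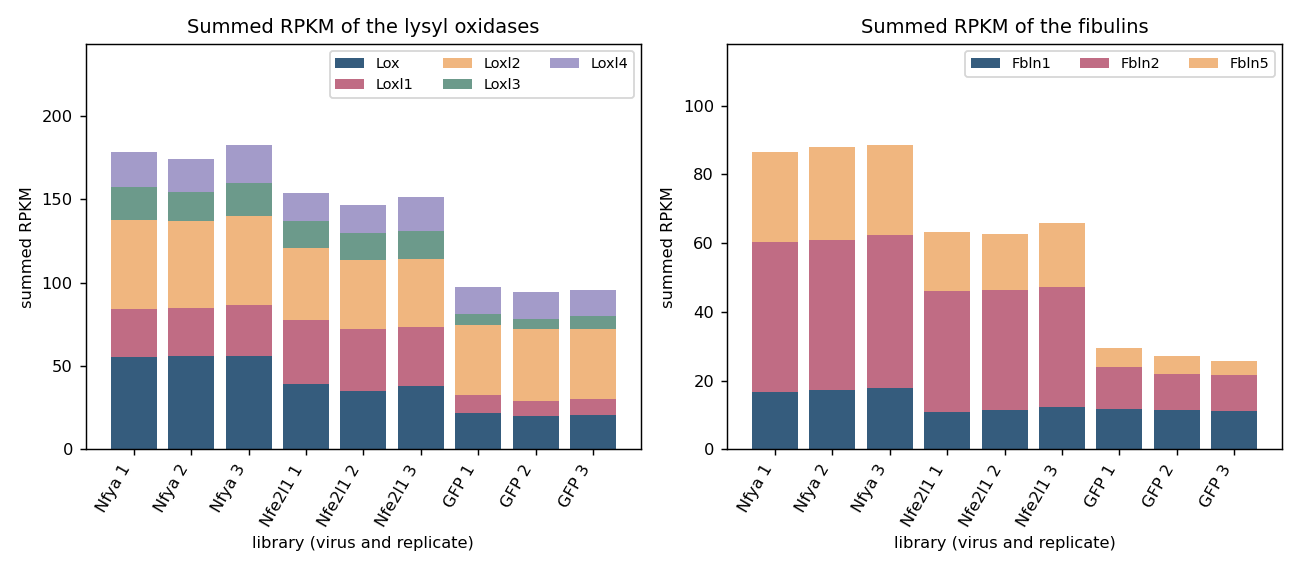
Summed RPKM of the 5 lysyl oxidase genes and of the 3 fibulin genes in each of 9 libraries, stacked by gene from 0. The lysyl oxidase sum is 174 to 182 RPKM with the Nfya label, 147 to 154 with the Nfe2l1 label and 94.7 to 97.3 with GFP, and the Loxl1 share is largest with the Nfe2l1 label.

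Eln codes for tropoelastin, the soluble precursor that lysyl oxidases cross-link. It had 56.1, 56.3 and 58.2 RPKM in Nfya-labelled libraries, 41.9, 40.0 and 41.1 RPKM in Nfe2l1-labelled libraries and 36.0, 38.2 and 34.9 RPKM in GFP libraries. The groups did not overlap, and the GFP libraries were lowest. Eln rose 1.54-fold with the Nfya label (0.63 ± 0.03, adjusted p = 4.64e-10) and 1.13-fold with the Nfe2l1 label (0.18 ± 0.04, adjusted p = 5.80e-04), and it was higher with Nfya than with Nfe2l1 by 0.45 ± 0.03 (adjusted p = 1.57e-08). The ratio of the lysyl oxidase sum to Eln RPKM was 3.14 ± 0.0442 with the Nfya label, 3.67 ± 0.00923 with the Nfe2l1 label and 2.64 ± 0.142 with GFP (SD, n = 3 each).

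Fbn1, the gene of the main microfibril protein, had 61.7, 61.1 and 64.1 RPKM in Nfya-labelled libraries, 48.4, 47.9 and 49.7 RPKM in Nfe2l1-labelled libraries and 28.1, 26.5 and 27.0 RPKM in GFP libraries. The groups did not overlap. Fbn1 rose 2.26-fold with the Nfya label (1.18 ± 0.03, adjusted p = 1.18e-13) and 1.79-fold with the Nfe2l1 label (0.84 ± 0.03, adjusted p = 3.30e-12), with a difference of 0.34 ± 0.03 between the labels (adjusted p = 7.28e-08). The ratio of Fbn1 to Eln RPKM was 1.10 ± 0.00852 with the Nfya label, 1.19 ± 0.0279 with the Nfe2l1 label and 0.750 ± 0.0482 with GFP, above 1 under both factor labels and below 1 with GFP.

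The fibulin genes differed widely among themselves. Fbln5, whose product tethers elastin to microfibrils, had 26.3, 27.0 and 26.1 RPKM in Nfya-labelled libraries, 17.1, 16.4 and 18.6 RPKM in Nfe2l1-labelled libraries and 5.48, 5.16 and 4.02 RPKM in GFP libraries. It was the lowest of the 10 genes with GFP, and no groups overlapped. Fbln5 rose 5.32-fold with the Nfya label (2.41 ± 0.08, adjusted p = 1.27e-12) and 3.55-fold with the Nfe2l1 label (1.83 ± 0.09, adjusted p = 6.73e-11), and it was higher with Nfya than with Nfe2l1 by 0.58 ± 0.06 (adjusted p = 3.91e-07). The ratio of Fbln5 to Eln RPKM was 0.466 ± 0.0158 with the Nfya label, 0.423 ± 0.0250 with the Nfe2l1 label and 0.134 ± 0.0187 with GFP.

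Fbln2, a fibulin found in elastic fibres of vessel walls, had 43.6, 43.6 and 44.4 RPKM in Nfya-labelled libraries, 35.0, 35.0 and 34.8 RPKM in Nfe2l1-labelled libraries and 12.2, 10.5 and 10.6 RPKM in GFP libraries. The GFP libraries lay far below both other groups, which did not overlap. Fbln2 rose 3.90-fold with the Nfya label (1.96 ± 0.04, adjusted p = 2.67e-14) and 3.15-fold with the Nfe2l1 label (1.66 ± 0.04, adjusted p = 1.40e-13). The difference between the labels was 0.31 ± 0.03 (adjusted p = 1.01e-06).

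Fbln1, a fibulin of basement membranes and elastic fibres, had 16.7, 17.2 and 17.9 RPKM in Nfya-labelled libraries, 11.0, 11.4 and 12.5 RPKM in Nfe2l1-labelled libraries and 11.7, 11.5 and 11.2 RPKM in GFP libraries. As for Loxl2, the Nfya-labelled libraries stood above the others, and the Nfe2l1-labelled and GFP libraries overlapped. Fbln1 rose 1.49-fold with the Nfya label (0.58 ± 0.05, adjusted p = 2.31e-07), and its difference with the Nfe2l1 label was 0.02 ± 0.06 (adjusted p = 0.818). It was higher with Nfya than with Nfe2l1 by 0.55 ± 0.05 (adjusted p = 3.07e-07). Its share of the summed fibulin RPKM was 19.7% ± 0.485 with the Nfya label, 18.1% ± 0.768 with the Nfe2l1 label and 41.8% ± 1.73 with GFP.

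Set in order of RPKM, the members changed places between the groups. With the Nfya label Fbn1 was highest (62.3 ± 1.57 RPKM), followed by Eln, Lox, Loxl2, Fbln2, Loxl1, Fbln5, Loxl4, Loxl3 and Fbln1 (17.3 ± 0.598 RPKM), and the ranges of neighbours overlapped only for Loxl3 and Fbln1. With the Nfe2l1 label Fbn1 was highest (48.7 ± 0.888 RPKM), followed by Loxl2, Eln, Loxl1, Lox, Fbln2, Loxl4, Fbln5, Loxl3 and Fbln1 (11.6 ± 0.771 RPKM). There the ranges overlapped for the neighbours Loxl2 and Eln, Loxl1 and Lox, Lox and Fbln2, Loxl4 and Fbln5, and Fbln5 and Loxl3. With GFP Loxl2 was highest (42.6 ± 0.461 RPKM), followed by Eln, Fbn1, Lox, Loxl4, Fbln1, Fbln2, Loxl1, Loxl3 and Fbln5 (4.89 ± 0.768 RPKM), and only Fbln1 and Fbln2 overlapped.

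**Figure D3:**
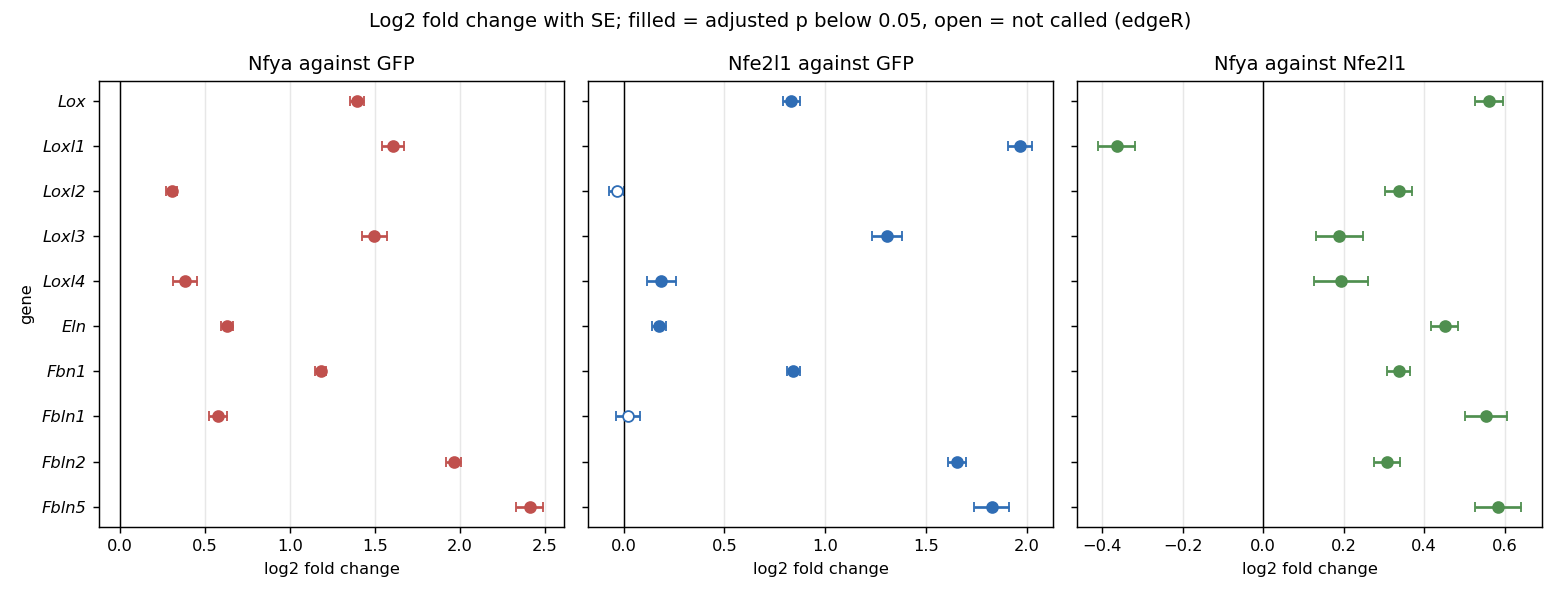
Log2 fold change ± SE (horizontal axis) of the 10 genes in Nfya-labelled against GFP, Nfe2l1-labelled against GFP and Nfya-labelled against Nfe2l1-labelled libraries, with open circles for genes not called. All 10 points are above 0 with the Nfya label, Loxl2 and Fbln1 lie near 0 with the Nfe2l1 label, and Loxl1 alone is below 0 between the labels.

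Read against the whole table, 6 members rose at least 2-fold with the Nfya label, as 6.47% of all genes did, and in 10 members the libraries did not overlap, as in 28.4% of all genes in that direction and in 33.2% in the other. The median log2 fold change was 1.29 for the members and -0.02 for all genes tested. With the Nfe2l1 label 4 members rose at least 2-fold, as 7.14% of all genes did, 8 stood above GFP with no overlap, as in 31.7% of all genes, and 0 stood below, as in 32.4%. The members called lower numbered 0 under either label, where 27.9% of all genes were with Nfya and 29.7% with Nfe2l1. For Nfe2l1 the medians were 0.84 for the members and -0.01 for all genes. Both comparisons share the GFP libraries. Between the labels 9 members were higher with Nfya and Loxl1 was lower, where 25.2% and 25.4% of all genes were, with medians of 0.34 for the members and 0.01 for all genes. In 8 members all Nfya-labelled libraries stood above all Nfe2l1-labelled ones, as in 30.3% of all genes, and for Loxl1 they stood below, as in 29.7%. No member was at least 2-fold higher with Nfya than with Nfe2l1, where 3.23% of all genes were. The authors' deposited tables give log2 fold changes of 2.45 (Fbln5), 1.64 (Loxl1) and 0.34 (Loxl2) for Nfya, and 1.83 (Fbln5), 1.97 (Loxl1) and -0.03 (Loxl2) for Nfe2l1.

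RefSeq promoter sequences of the rat build GRCr8 were matched by symbol for 6 of the 10 members (Loxl1, Loxl3, Loxl4, Fbn1, Fbln2 and Fbln5). The 250 bases before the annotated start are shown for Loxl1, the 1 member lower with Nfya than with Nfe2l1, for Fbln5, with the largest rise under the Nfya label, and for Loxl4, the 1 of the 6 with a CCAAT box before its start. Capitals mark a CCAAT box on either strand.
Loxl1 (chr8:67612225-67612474, minus strand): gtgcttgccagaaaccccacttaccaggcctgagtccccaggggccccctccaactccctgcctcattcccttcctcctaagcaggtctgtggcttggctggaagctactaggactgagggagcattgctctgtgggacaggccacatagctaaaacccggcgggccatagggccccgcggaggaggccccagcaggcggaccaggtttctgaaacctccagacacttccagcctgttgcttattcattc
Fbln5 (chr6:126742707-126742956, minus strand): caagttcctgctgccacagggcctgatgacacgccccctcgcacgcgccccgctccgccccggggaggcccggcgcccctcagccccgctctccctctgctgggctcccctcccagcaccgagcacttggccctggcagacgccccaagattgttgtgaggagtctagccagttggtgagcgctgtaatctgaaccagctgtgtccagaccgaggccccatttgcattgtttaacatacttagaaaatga
Loxl4 (chr1:251365578-251365827, minus strand): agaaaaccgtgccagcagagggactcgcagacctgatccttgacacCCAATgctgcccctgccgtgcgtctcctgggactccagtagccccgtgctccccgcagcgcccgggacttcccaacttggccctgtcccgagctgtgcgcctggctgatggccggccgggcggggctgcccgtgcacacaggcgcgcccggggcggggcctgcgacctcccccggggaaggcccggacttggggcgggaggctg
The NF-Y motif was searched as CCAAT or ATTGG, and the antioxidant response core, which NFE2L1 binds with small Maf proteins, as TGACNNNGC or GCNNNGTCA, from 250 bases before to 50 bases after the start. A CCAAT box was found in 2 of the 6 windows. It lay 204 bases before the start in Loxl4, and in Fbln5 matches that overlap each other lay at positions 26 and 29 after the start. Of 33469 rat promoter windows 37.5% held it. The response core was in 0 of the 6 windows and in 12.1% of all windows. In the Fbn1 window ATG follows the annotated start directly, so that start may be where translation begins. The search may therefore have missed the Fbn1 promoter, and the lack of a match there does not show that the promoter lacks either motif. A match is a run of letters and not a shown binding site.

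Other genes that act on elastic fibres were read from 5 lists of 52 genes, of which 49 were in the count table and 43 were tested. Of these, 34 rose and 1 fell with the Nfya label, and 28 rose and 5 fell with the Nfe2l1 label. Between the labels 21 were higher and 6 lower with Nfya than with Nfe2l1. Of all genes tested, 24.3% were called higher and 27.9% lower with the Nfya label, and 28.9% higher and 29.7% lower with the Nfe2l1 label. Between the labels 25.2% were higher and 25.4% lower. The lists were chosen with results of these data known, so their counts are descriptions.

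Of 16 genes of microfibril and fibre assembly, 15 rose and 0 fell with the Nfya label (median log2 fold change 0.71), and 10 rose and 3 fell with the Nfe2l1 label (median 0.37). Ltbp2, whose product sits on microfibrils, averaged 258 ± 2.87 CPM with the Nfya label, 256 ± 2.78 CPM with the Nfe2l1 label and 55.0 ± 7.59 CPM with GFP. It rose by 2.22 ± 0.05 with Nfya (adjusted p = 6.80e-14) and 2.21 ± 0.05 with Nfe2l1 (adjusted p = 6.14e-14). Ltbp4, which aids elastin deposition, rose by 1.65 ± 0.06 with Nfya (adjusted p = 2.47e-12) and 1.09 ± 0.06 with Nfe2l1 (adjusted p = 6.54e-10). Ltbp3, a latent TGF-beta binding protein gene, rose by 0.85 ± 0.05 with Nfya (adjusted p = 2.15e-09) and 1.08 ± 0.05 with Nfe2l1 (adjusted p = 6.24e-11). Efemp2, the gene of fibulin-4, which guides LOX to elastin in mice, averaged 73.8 ± 2.65 CPM with the Nfya label, 111 ± 2.46 CPM with the Nfe2l1 label and 44.3 ± 3.11 CPM with GFP. Like Loxl1, Efemp2 was lower with Nfya than with Nfe2l1 (-0.58 ± 0.04, adjusted p = 1.36e-08).

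Fbn2, a second fibrillin gene known for its embryonic expression, moved in opposite directions against GFP. It averaged 211 ± 2.29 CPM with the Nfya label, 109.7 ± 7.11 CPM with the Nfe2l1 label and 131 ± 1.17 CPM with GFP. Fbn2 rose by 0.68 ± 0.04 with Nfya (adjusted p = 3.33e-10) and fell by 0.26 ± 0.04 with Nfe2l1 (adjusted p = 5.66e-05), and it was higher with Nfya than with Nfe2l1 by 0.94 ± 0.04 (adjusted p = 1.46e-11). Adamtsl2 and Adamtsl4, of the ADAMTS-like family and named after their values were seen, also fell with the Nfe2l1 label. Adamtsl2 was called in opposite directions too, at 0.41 ± 0.12 with Nfya (adjusted p = 0.0107) and -0.58 ± 0.14 with Nfe2l1 (adjusted p = 0.00231). Its Nfya-labelled and GFP libraries overlapped, at 25.7 ± 3.24 and 19.2 ± 3.73 CPM. The call with Nfya was lost without Nfya replicate 1 (adjusted p = 0.0644) and at the stricter threshold of 0.01. Adamtsl4 stood at -0.08 ± 0.06 with Nfya, not called, and -0.34 ± 0.06 with Nfe2l1 (adjusted p = 1.16e-04). Adamts6, named after its values were seen, rose by 0.62 ± 0.09 with Nfya and 0.29 ± 0.09 with Nfe2l1, where its call was lost with DESeq2 (adjusted p = 0.123) and without GFP replicate 3 (0.109).

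Among 9 genes of lysyl oxidase maturation and copper supply, 6 rose and 0 fell with the Nfya label, and 4 rose and 1 fell with the Nfe2l1 label. Postn, the periostin gene, whose product brings BMP1 to LOX in mice, rose by 1.29 ± 0.03 with Nfya (adjusted p = 1.18e-13) and 0.98 ± 0.03 with Nfe2l1 (adjusted p = 1.94e-12). Bmp1, the protease gene whose product cleaves the LOX propeptide, rose by 0.52 ± 0.05 with Nfya (adjusted p = 2.35e-07). Its rise with Nfe2l1 (0.14 ± 0.05, adjusted p = 0.0279) was not called without GFP replicate 3 (adjusted p = 0.168) or with DESeq2 (0.0998) or limma on log2(RPKM + 0.1) (0.0568) or log2(RPKM + 1) (0.0551). Tll1, a related protease gene, rose by 0.30 ± 0.08 with Nfya (adjusted p = 0.00432) and fell by 0.45 ± 0.09 with Nfe2l1 (adjusted p = 3.75e-04). Atp7a, Slc31a1 and Atox1, which carry copper and were named after their values were seen, were not called under either label. Pcolce, also named after its values were seen, was called higher with Nfya (adjusted p = 0.0320) but not with DESeq2 (adjusted p = 0.152), with the replicate block (0.0584) or without GFP replicate 2 (0.0533) or Nfya replicate 1 (0.0507), 2 (0.0561) or 3 (0.122).

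Of 7 fibrillar collagen genes, whose products lysyl oxidases also cross-link, 6 rose and 1 fell with the Nfya label, and 6 rose and 0 fell with the Nfe2l1 label. Col5a3 rose by 1.94 ± 0.05 with Nfya (adjusted p = 4.97e-14) and 1.99 ± 0.04 with Nfe2l1 (adjusted p = 2.09e-14). Col11a1 rose by 1.46 ± 0.05 with Nfya (adjusted p = 4.53e-12) and 1.48 ± 0.05 with Nfe2l1 (adjusted p = 2.63e-12). Col1a2, named after its values were seen, was the 1 that fell; it had 7, 10 and 23 counts in Nfya-labelled, 64, 7 and 15 in Nfe2l1-labelled and 6, 117 and 59 in GFP libraries. Its libraries overlapped, and its call with Nfya (adjusted p = 0.0264) was lost with the replicate block (adjusted p = 0.0525), with DESeq2 (0.116) or limma on log2(RPKM + 0.1) (0.195) or log2(RPKM + 1) (0.125) and without GFP replicate 2 (0.211) or 3 (0.0508) or Nfya replicate 1 (0.0949) or 2 (0.0842).

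Of 7 elastin-degrading proteases 6 rose and 0 fell with the Nfya label, and 5 rose and 0 fell with the Nfe2l1 label. Mmp14, a membrane-bound metalloproteinase gene, rose by 1.15 ± 0.03 with Nfya and 0.90 ± 0.04 with Nfe2l1, and Mmp2, the gelatinase A gene, by 0.92 ± 0.04 with Nfya and 0.81 ± 0.04 with Nfe2l1. Mmp9, the gelatinase B gene, averaged 6.51 ± 0.200 CPM with the Nfya label, 20.1 ± 0.828 CPM with the Nfe2l1 label and 2.76 ± 0.733 CPM with GFP, and was lower with Nfya than with Nfe2l1 (-1.62 ± 0.13, adjusted p = 3.40e-08). Ctss, a cathepsin gene named after its values were seen, rose by 0.54 ± 0.18 with Nfya (adjusted p = 0.0221), a call lost with DESeq2 (adjusted p = 0.104) and without GFP replicate 2 (adjusted p = 0.0981) or Nfya replicate 1 (0.0881). Of 4 protease inhibitors, 1 rose and 0 fell with the Nfya label, and 3 rose and 1 fell with the Nfe2l1 label. The 1 of 4 with Nfya lies near the 24.3% of all genes called higher. The count that rose with Nfya was 2 in 9 of 18 alternatives, among them RLE scaling, no filter on low counts, both limma fits and leaving out GFP replicate 2 or Nfe2l1 replicate 1 or 3. Timp2, a metalloproteinase inhibitor gene, rose by 0.30 ± 0.04 with Nfya and 0.24 ± 0.04 with Nfe2l1. Timp1 and Timp3, of the same family, stood at 0.15 ± 0.05 and 0.04 ± 0.04 with Nfya, neither called, and rose by 0.25 ± 0.05 and 0.22 ± 0.04 with Nfe2l1. Cst3, the cystatin C gene, stood at -0.06 ± 0.05 with Nfya and fell by 0.19 ± 0.05 with Nfe2l1 (adjusted p = 0.00484), a call lost with DESeq2 (adjusted p = 0.0958) and without Nfe2l1 replicate 3 (adjusted p = 0.0844) or GFP replicate 3 (0.0525).

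**Figure D4:**
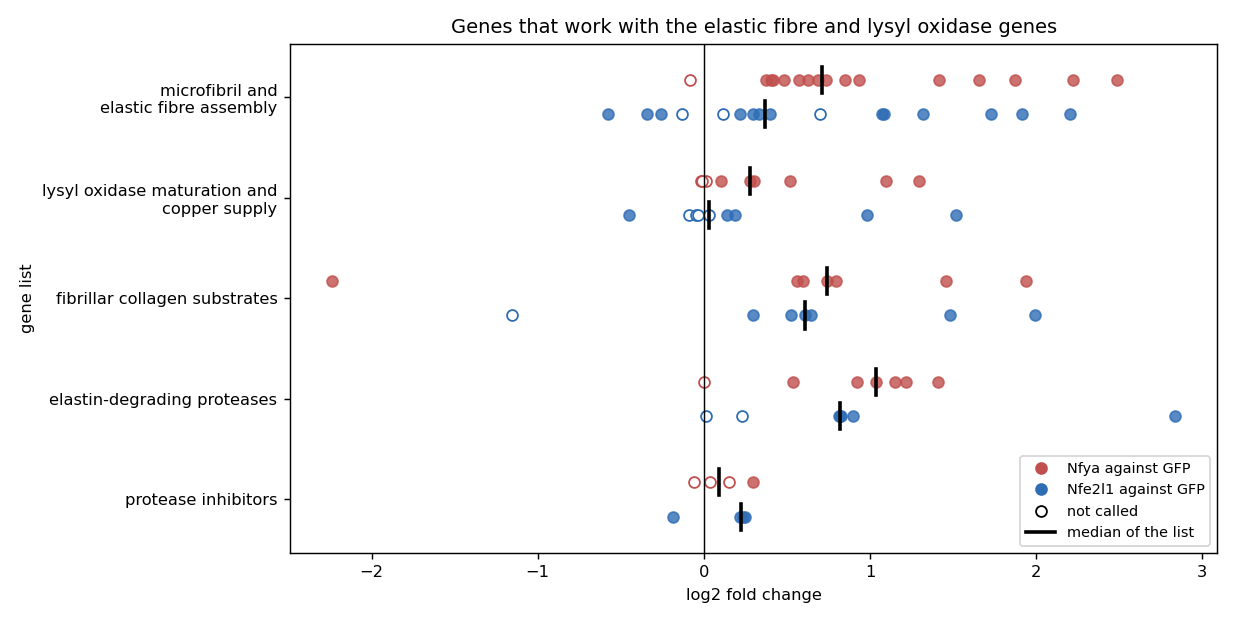
Log2 fold change against GFP (horizontal axis) of the 43 tested genes of 5 lists, red for Nfya-labelled and blue for Nfe2l1-labelled libraries, open where not called, with a black bar at the median of each list. The medians of the assembly list are 0.71 with the Nfya label and 0.37 with the Nfe2l1 label, and those of the inhibitors are 0.09 and 0.23.

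Against GFP, markers of fibroblasts and of the epicardium and mesothelium rose under both labels. Those of other cell types were mixed or mostly not called. With Nfya against Nfe2l1, 6 of 7 fibroblast and 7 of 7 tested pericyte and smooth muscle markers were higher and 0 lower. Of 7 epicardial and mesothelial markers 0 were higher and 2 lower, and of 7 endothelial markers 1 and 3. Of 4 macrophage markers 0 were higher and 1 lower, and of 8 myocyte markers 2 and 0. Between the labels 25.2% of all genes tested were higher and 25.4% lower. All 7 fibroblast markers (Pdgfra, Dcn, Lum, Tcf21, Ddr2, Dpt and Thy1) rose under either label, with summed levels of 401 to 421 CPM with the Nfya label, 317 to 333 CPM with the Nfe2l1 label and 149 to 156 CPM with GFP and none at 0. All 7 epicardial and mesothelial markers rose under either label, with sums of 123 to 141 CPM with the Nfya label, 143 to 163 CPM with the Nfe2l1 label and 57.3 to 63.6 CPM with GFP and none at 0. Of 7 endothelial markers 4 rose and 1 fell with Nfya, and 5 rose and 1 fell with Nfe2l1, with sums of 377 to 393 CPM with the Nfya label, 433 to 455 CPM with the Nfe2l1 label and 298 to 310.3 CPM with GFP and none at 0. Of 7 tested markers of pericytes and smooth muscle, 5 rose and 1 fell with Nfya, and 1 rose and 3 fell with Nfe2l1, with sums over 8 of 1057 to 1076 CPM with the Nfya label, 740.4 to 764 CPM with the Nfe2l1 label and 968 to 979.8 CPM with GFP and none at 0. Of 4 tested macrophage markers 3 rose and 1 fell with Nfya, and 2 rose and 0 fell with Nfe2l1; the sums over 7 were 50.6 to 61.9 CPM with the Nfya label, 63.6 to 69.8 CPM with the Nfe2l1 label and 43.5 to 58.1 CPM with GFP, and Cd163 was at 0 with the Nfe2l1 label. Of 8 myocyte markers 2 rose and 0 fell with Nfya, and 0 rose and 0 fell with Nfe2l1. Of all genes tested, 24.3% rose and 27.9% fell with Nfya, and 28.9% rose and 29.7% fell with Nfe2l1. The 2 of 8 myocyte markers that rose with Nfya lie near that share. The part of these cells in the members' differences was not tested. In bulk RNA a change in the number of cells of a type and a change in RNA per cell cannot be told apart.

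The members were also set against the fibroblast markers. The single markers differed, with log2 fold changes of 1.13 to 2.41 with the Nfya label and 0.71 to 1.70 with the Nfe2l1 label. A member below their mean can thus have risen more than some of them, as Lox did with Nfya (1.39, Pdgfra 1.13). One above it can have risen less, as Fbln2 did with Nfya (1.96, Tcf21 2.41). Loxl2, Loxl4, Eln and Fbln1 had lower fold changes than every marker under either label. The mean log2 CPM of the 7 markers was higher than with GFP by 1.65 with the Nfya label and by 1.21 with the Nfe2l1 label. Relative to that mean, Lox, Loxl2, Loxl4, Eln, Fbn1 and Fbln1 were lower with the Nfya label than with GFP in all libraries, Fbln2 and Fbln5 were higher, and Loxl1 and Loxl3 overlapped. By the same measure 94.2% of all genes tested were lower and 1.33% higher with no overlap. With the Nfe2l1 label these 6 were again lower, Loxl1, Fbln2 and Fbln5 were higher, and Loxl3 overlapped, where 90.2% of all genes were lower and 3.67% higher. The difference in relative level was 0.78 (Nfya) and 0.64 (Nfe2l1) for Fbln5, -0.04 (Nfya) and 0.77 (Nfe2l1) for Loxl1, and -1.35 (Nfya) and -1.24 (Nfe2l1) for Loxl2. Between the labels Loxl1 (-0.81), Loxl3 (-0.26), Loxl4 (-0.24), Fbn1 (-0.11) and Fbln2 (-0.14) were lower with Nfya than with Nfe2l1, Fbln1 (0.11) and Fbln5 (0.15) were higher, and Lox, Loxl2 and Eln overlapped. For Loxl3, Loxl4, Fbn1 and Fbln2 this is the reverse of the direction called without the markers. Of all genes 73.9% were lower and 6.12% higher by this measure. With the median of the markers in place of their mean, an alternative chosen after seeing the data, 8 members were lower with Nfya than with Nfe2l1 and 0 higher. The shares of all genes given here are for the mean, so this count has no share beside it and is not read further. For each member without overlap the exact two-sided permutation p was 0.1, the smallest that 3 against 3 libraries can give.

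**Figure D5:**
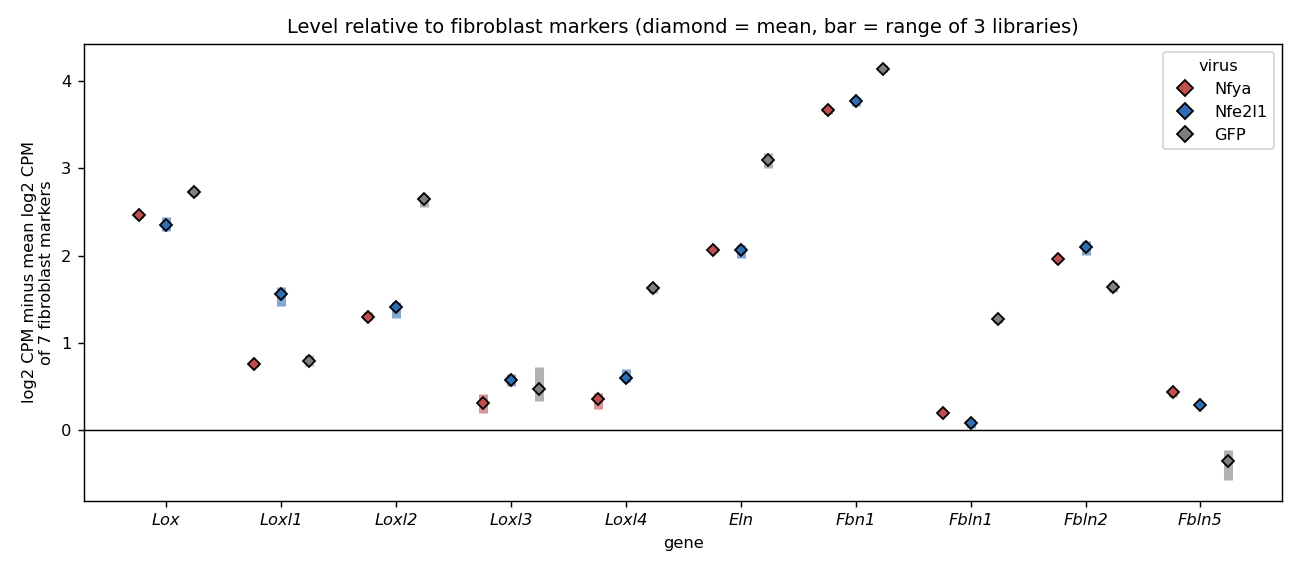
Log2 CPM of each of the 10 genes minus the mean log2 CPM of 7 fibroblast markers (vertical axis), by virus; diamonds are means and bars the range of 3 libraries. Fbln2 and Fbln5 lie higher with both factor labels than with GFP, and Loxl2 lies lower with both.

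Over the 9 libraries, which fall into 3 groups and share what moves with the virus, Pearson's r of log2 CPM between members ran from 0.255 (Loxl1 and Loxl2) to 0.992 (Fbn1 and Fbln5). Among 11941 genes with a mean of at least 5 CPM, the pattern most like that of Lox was that of Cdh11, a cadherin gene (r = 0.998). For Loxl1 it was the endocytic receptor gene Lrp1 (r = 0.997), for Loxl3 the collagen gene Col5a2 (r = 0.995) and for Fbn1 the procollagen protease gene Adamts2 (r = 0.999). For Fbln2 it was the collagen gene Col6a1 (r = 0.999) and for Fbln5 the neprilysin gene Mme (r = 0.999). For the members with smaller changes it was Tsc22d3 for Loxl2 (r = 0.995), Emb for Loxl4 (r = 0.961), Diaph3 for Eln (r = 0.995) and the homeobox gene Meox2 for Fbln1 (r = 0.996).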

How the data were processed

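Stranded messenger RNA libraries were made from infected myocytes, 9 in all, per the labels. The authors deposited whole-number counts per gene symbol, and RPKM values with gene lengths. The authors also deposited, for each factor against GFP, log2 fold changes, a likelihood ratio score and p-values. Per the submitters' processing notes, reads passed through FastQC 0.11.4 and featureCounts 1.6.0, and edgeR 3.20.5 was used. The strand setting, aligner and annotation were not given in the sources used here, so reads of overlapping genes may not be told apart.

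Counts were analysed with edgeR 4.0.16 and limma 3.58.1 in R 4.3.3, using filterByExpr, TMM scaling and the quasi-likelihood test on 9 libraries grouped by title, with group as the only term. The script was tested on simulated data. Levels relative to fibroblast markers are log2 CPM with a prior count of 0.5. Members and lists were chosen with earlier results of these data known. Named genes were the members, targeted genes, cell type markers, the gene most like each member in pattern, Htra2 (added after its values were seen), and from each list up to 3 called genes with the smallest adjusted p per comparison, or all of a list of 5 or fewer. Alternatives were DESeq2 1.42.0, RLE scaling, no filter, a mean of at least 5 CPM, the 6 libraries compared, a replicate block, an adjusted p below 0.01, limma on log2(RPKM + 0.1) or log2(RPKM + 1), and leaving out each library. Counting errors cover counting only, since no molecular identifiers tell molecules from PCR copies.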

Additional observations from a re-analysis of the deposited data

How the results depend on the processing

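The calls of members that were lost under an alternative were those of Loxl4 for Nfe2l1 against GFP (lost in 8 of 18 alternatives, adjusted p 0.00429 to 0.241), Loxl4 for Nfya against Nfe2l1 (lost in 6 of 18 alternatives, adjusted p 4.34e-04 to 0.132) and Loxl3 for Nfya against Nfe2l1 (lost in 6 of 18 alternatives, adjusted p 0.00371 to 0.130). Genes that were not called changed sign in 3 values for Nfe2l1 against GFP: Loxl2 was at 0.00101 with no filter on low counts and 0.0041 without Nfe2l1 replicate 3, and Fbln1 was at -0.015 without Nfe2l1 replicate 3. Over the 18 alternatives, Loxl2 ran from -0.040 to 0.004 and Fbln1 from -0.015 to 0.078, and the cause was not tested. With 1 library left out, members called ran from 10 to 10 for Nfya against GFP, 7 to 8 for Nfe2l1 against GFP and 8 to 10 for Nfya against Nfe2l1, and all genes called ran from 6615 to 7486, 7692 to 8327 and 6404 to 7360. With the replicate block, members called were 10, 8 and 10 and all genes called 7220, 8137 and 6929 in these comparisons. DESeq2 called fewer genes, 5096, 6265 and 4829, against 7386, 8297 and 7158 in the main fit. The shares of all genes called higher or lower are therefore smaller with DESeq2. The split of all genes called by direction also moved. For Nfya against GFP 46.5% of them were higher in the main fit, 54.0% with a mean of at least 5 CPM and 45.3% without GFP replicate 3. The shares of all genes called higher or lower that stand beside the members thus depend on the alternative. No sign was seen that the numbers pair the libraries: deviations from group means correlated at -0.04 to 0.06, and 4 of 9 libraries were closest to their own number. Counting noise enters these deviations, so they cannot exclude that libraries with the same number share a preparation. Relative to the mean of the fibroblast markers, Nfya against Nfe2l1 gave 5 members lower and 2 higher, where 73.9% and 6.12% of all genes were. With the median of the markers, chosen after seeing the data, it gave 8 lower and 0 higher, with no share of all genes beside it. Counts of genes higher in the 5 lists moved by over 1.5 times in 15 of 270 values, all but 1 of them for the protease inhibitors (1 or 2 genes higher with Nfya than with GFP, and 0 or 1 with Nfya than with Nfe2l1) and 1 for the proteases. Depth limits Fbln5 most, with 232 counts over the GFP libraries.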
